A study of Mus musculus with 45 samples.

Results

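The T cell receptor alpha and beta V segments were followed as 163 rows, those whose symbol began with Trav or Trbv, out of 47729 mouse genes in each of the 2 deposited expression tables. Of these, 128 were Trav rows and 35 were Trbv rows. The RNA came from 45 tumours grown under the skin from CT26, a BALB/c mouse line of colon carcinoma. The hosts were BALB/c HuGEMM mice in which PD-1 and TIGIT were both replaced by human knock-in alleles, so every group, vehicle included, shared these alleles. Both are inhibitory receptors of T cells. The mice were treated by intraperitoneal injection, 2 times a week from day 8, with antibodies against human PD-1 (serplulimab, pembrolizumab), against human TIGIT (HLX53, tiragolumab), with a pair of them, or with saline vehicle.

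Experiment T2106 held 6 groups of 3 tumours: serplulimab with HLX53 at 10 mg/kg, serplulimab with HLX53 at 5 mg/kg, serplulimab, HLX53, pembrolizumab with tiragolumab, and vehicle. Experiment T2215 held 9 groups of 3 tumours: serplulimab with HLX53, serplulimab with tiragolumab, serplulimab, pembrolizumab with HLX53, pembrolizumab with tiragolumab, pembrolizumab, HLX53, tiragolumab, and vehicle. Every antibody was given at 10 mg/kg, apart from the 5 mg/kg dose of HLX53 in T2106. Levels are in FPKM (fragments counted per length of gene and per amount of mapped sequence). The authors normalised the tables separately, so comparisons stay within an experiment. The libraries listed between 12918 and 14448 genes at 0.5 FPKM or more, and their read depth is unknown. T cell receptor genes are rearranged in T cells and not in carcinoma cells. In bulk RNA, fewer T cells and less receptor RNA per T cell cannot be told apart.

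A T cell receptor pairs an alpha chain with a beta chain, and each chain gene is assembled during T cell development by joining a V segment to smaller segments in front of a constant region. Each T cell usually carries a single productive beta chain, so the V segments read in a tissue sample the T cells present there. A clone that has expanded brings its own V segments with it. The Trav segments lie in the alpha/delta locus, and those with dv in their names can also be joined into delta chains.

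The Trbv segments that lead in these tumours, and the alpha segment Trav21-dv12, end as follows. The last 60 bases of each germline segment are shown because they hold the point at which a rearranged gene departs from the germline. The capitals mark 3 codons, those of a tyrosine or phenylalanine, of any residue and of the conserved cysteine at which the most variable loop of the chain begins. The sequences are GENCODE M21 transcripts on GRCm38. All are read from the plus strand apart from Trbv31, which is read from the minus strand.

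Trbv13-1 at chr6:41116409-41116468: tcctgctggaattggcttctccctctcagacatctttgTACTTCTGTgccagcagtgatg
Trbv13-2 at chr6:41121773-41121832: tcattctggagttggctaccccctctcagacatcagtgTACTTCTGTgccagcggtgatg
Trbv13-3 at chr6:41130526-41130585: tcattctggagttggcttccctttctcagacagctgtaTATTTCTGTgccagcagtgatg
Trbv29 at chr6:41271822-41271881: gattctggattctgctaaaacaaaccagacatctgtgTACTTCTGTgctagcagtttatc
Trbv5 at chr6:41062744-41062803: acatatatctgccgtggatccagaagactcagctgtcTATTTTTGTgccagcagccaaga
Trbv31 at chr6:41557693-41557752: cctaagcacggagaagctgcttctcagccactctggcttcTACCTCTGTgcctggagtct
Trbv19 at chr6:41178989-41179048: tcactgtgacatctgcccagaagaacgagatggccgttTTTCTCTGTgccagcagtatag
Trav21-dv12 at chr14:53876693-53876752: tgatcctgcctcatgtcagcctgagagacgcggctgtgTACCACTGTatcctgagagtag

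Over their last 240 bases, Trbv13-2 and Trbv13-3 were 90.8% identical, Trbv13-1 and Trbv13-2 87.1%, and Trbv13-1 and Trbv13-3 84.6%. No Trbv segment was within 3 differences of another, and the median identity of a Trbv segment to its closest relative was 67.1%. The alpha locus is different, because part of it is duplicated in copies named with d and n. Of 128 Trav segments, 43 were identical to another over the last 240 bases and 69 were within 3 differences, with a median identity of 99.2% to the closest relative. Reads from such copies may be split between rows, so single Trav rows are less certain than Trbv rows. The alpha segment with the highest level, Trav3-3, is shown beside its copies Trav3d-3 and Trav3n-3 over the last 100 bases, all on the plus strand. The capitals mark the bases that differ, G35A and C80T, with the base of Trav3-3 first and positions counted from 1 at the 5′ end of the stretch.

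Trav3-3 at chr14:53666407-53666506: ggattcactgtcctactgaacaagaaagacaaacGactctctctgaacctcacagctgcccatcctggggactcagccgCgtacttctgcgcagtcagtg
Trav3d-3 at chr14:52972939-52973038: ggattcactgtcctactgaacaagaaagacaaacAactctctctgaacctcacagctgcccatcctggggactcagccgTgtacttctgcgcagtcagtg
Trav3n-3 at chr14:53284076-53284175: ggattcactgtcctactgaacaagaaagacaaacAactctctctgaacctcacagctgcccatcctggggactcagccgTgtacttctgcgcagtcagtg

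Most V segments were not seen. Of 7335 member values, 6137 (83.7%) lay below 0.01 FPKM, and 116 of 163 segments never reached 0.5 FPKM in a tumour. The 47 that did were 29 of 128 Trav and 18 of 35 Trbv segments. Of the 47, 12 reached 0.5 FPKM in exactly 1 tumour and 11 in exactly 2. None of the 13 Trbv pseudogenes reached it, and of 20 Trav pseudogenes only Trav20 did, at 0.541 FPKM in 1 tumour. The 4 Trbv genes that stayed below it were Trbv12-1, Trbv21, Trbv23 and Trbv26. Among Trav segments, 17 of the 55 without a copy letter reached 0.5 FPKM, as did 8 of 39 d copies and 4 of 34 n copies.

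Low values came in steps. For Trbv13-3 in T2215, 11 tumours lay below 0.01 FPKM, 6 lay between 0.136 and 0.163, 6 between 0.287 and 0.396, and 4 between 0.622 and 2.15. Values between these steps and 0.01 FPKM also occurred: 195 Trav values, of which 154 were in segments within 3 differences of another, and 33 Trbv values lay between 0.01 and 0.09 FPKM. A segment listed below 0.01 FPKM was not detected at this depth.

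The segment with the highest mean was a beta segment in each experiment, Trbv29 in T2106 and Trbv13-1 in T2215. Trbv29 averaged 4.23 FPKM over the 18 tumours of T2106 (median 0.697) and 0.710 FPKM over the 27 tumours of T2215. In 1 tumour Trbv29 reached 49.9 FPKM, and without that tumour its T2106 mean was 1.54 FPKM. Trbv13-1 averaged 2.31 FPKM in T2106 and 1.33 in T2215, Trbv13-2 2.49 and 0.782, Trbv5 1.99 and 0.967, Trbv31 1.44 and 0.737, and Trbv19 0.961 and 0.867. Trbv31 is the only Trbv segment on the minus strand, and it lies on the far side of the constant regions from all others.

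Detection was spread more evenly than level. Trbv5 reached 0.5 FPKM in 27 of 45 tumours, Trbv13-1 in 24, Trav3-3, Trbv13-2 and Trbv19 in 23 each, and Trbv29 and Trbv31 in 22 each. These were the 7 segments seen in at least 20 tumours. Of the alpha segments, Trav3-3 averaged 1.46 FPKM in T2106 and 1.06 in T2215, where it came second of all V segments, and Trav21-dv12 averaged 0.983 and 0.367. The next 4 by level were Trav16n, Trav8d-1, Trav12-3 and Trav2, with means between 0.0486 and 0.296 FPKM in the 2 experiments. Trav21-dv12 has no near copy, with 65.8% identity to its closest relative, Trav2. The heat map of leading segments shows this pattern by tumour.

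**Figure D1:**
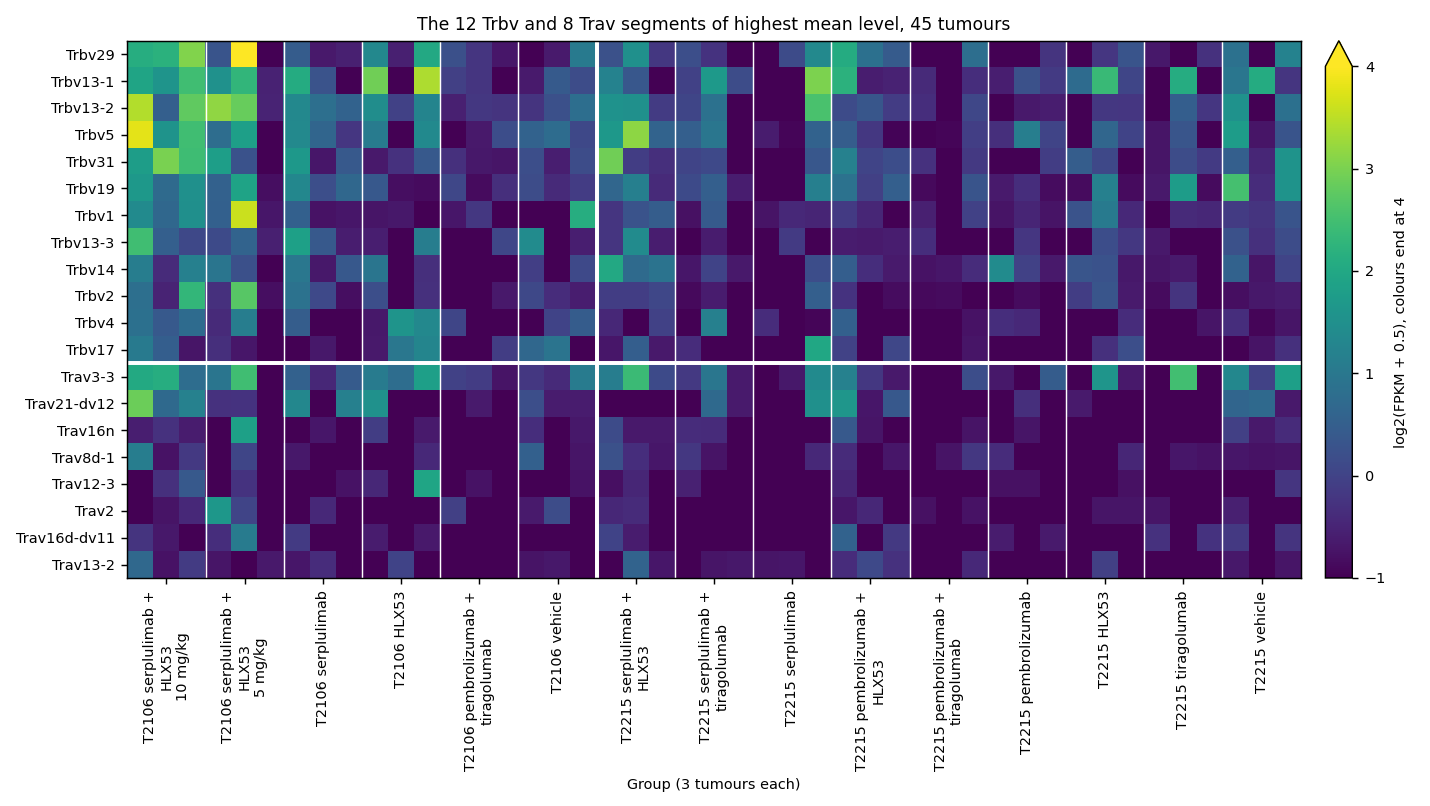
Level of the 12 Trbv segments (above the white line) and 8 Trav segments of highest mean level in each of 45 tumours, as log2(FPKM + 0.5), with T2106 to the left of the thick line and T2215 to its right. The first 3 columns, serplulimab with HLX53 at 10 mg/kg, are bright over most beta segments, and Trbv29 peaks at 49.9 FPKM in replicate 2 of the 5 mg/kg group.

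The summed FPKM of all 163 segments measured how much V segment RNA a tumour held. It ran from 0.832 to 120.0 FPKM over 45 tumours, with a median of 8.22. In T2106 it was 75.3, 33.3 and 56.3 FPKM with serplulimab and 10 mg/kg HLX53, and 29.8, 120.0 and 1.59 FPKM with serplulimab and 5 mg/kg HLX53. It was 30.1, 7.67 and 9.36 FPKM with serplulimab, 23.0, 7.94 and 33.4 FPKM with HLX53, 4.56, 3.10 and 3.62 FPKM with pembrolizumab and tiragolumab, and 13.7, 9.77 and 17.8 FPKM with vehicle. The 3 tumours of the 10 mg/kg pair lay above every vehicle tumour, and the 3 tumours given pembrolizumab and tiragolumab lay below every vehicle tumour. The 5 mg/kg group held both the highest and the lowest tumour of the experiment.

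In T2215 the sums were 30.5, 38.4 and 8.49 FPKM with serplulimab and HLX53, 6.66, 16.0 and 1.73 with serplulimab and tiragolumab, and 0.888, 1.76 and 36.2 with serplulimab. They were 24.7, 7.23 and 7.79 FPKM with pembrolizumab and HLX53, 2.39, 0.832 and 7.73 with pembrolizumab and tiragolumab, and 4.30, 6.18 and 3.75 with pembrolizumab. HLX53 tumours had 5.56, 18.4 and 7.04 FPKM, tiragolumab tumours 1.39, 15.8 and 2.18 FPKM, and vehicle tumours 28.6, 8.22 and 19.3 FPKM. Here no treated group lay wholly above vehicle. Tumours given pembrolizumab alone, or with tiragolumab, lay below every vehicle tumour. The sum is a score over the members and is described without a test.

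**Figure D2:**
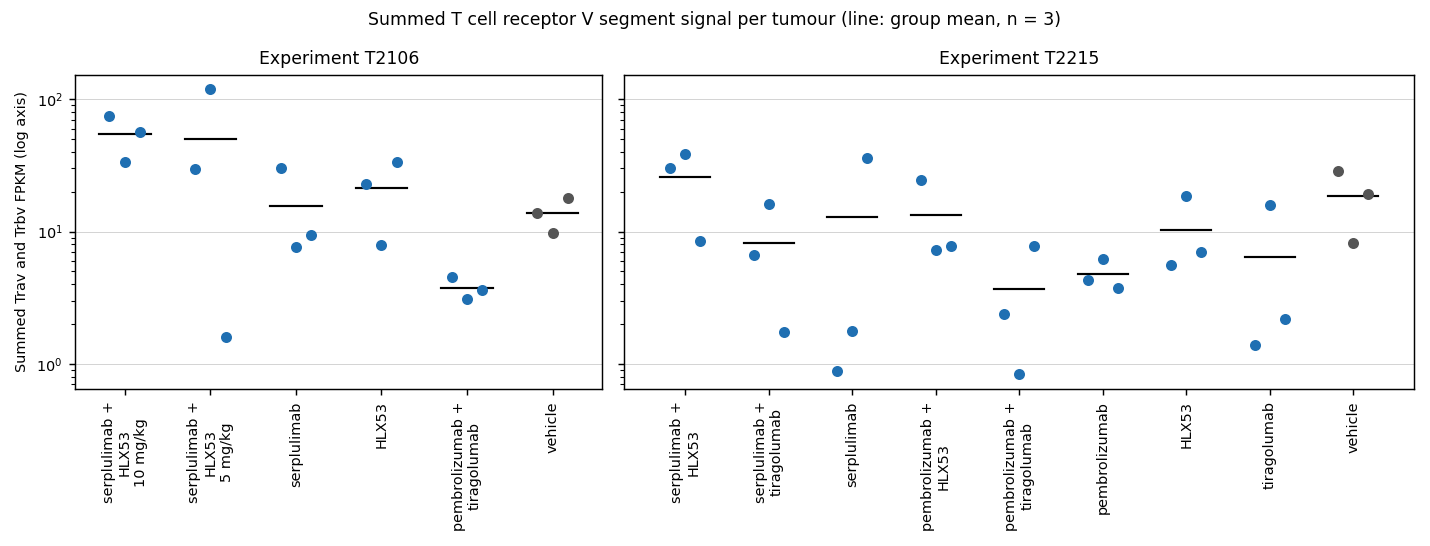
Summed FPKM of the Trav and Trbv segments in each tumour by group, on a log axis, with points for replicates 1 to 3 and a line at the group mean. In T2106 the 10 mg/kg pair sits between 33.3 and 75.3 FPKM, above the vehicle tumours at 9.77 to 17.8, and in both experiments pembrolizumab with tiragolumab sits low.

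The pair of serplulimab and HLX53 and the pair of pembrolizumab and tiragolumab were given in both experiments at 10 mg/kg. The mean sum was 54.9 ± 21.1 FPKM for the first pair and 3.76 ± 0.74 FPKM for the second in T2106, a ratio of 14.6 (SD, n = 3 each). In T2215 the means were 25.8 ± 15.5 FPKM and 3.65 ± 3.62 FPKM, a ratio of 7.06 (SD, n = 3 each), which was 16.0 without replicate 3 of pembrolizumab and tiragolumab and 5.09 without its replicate 2. In each experiment, the 3 tumours given serplulimab and HLX53 lay above the 3 given pembrolizumab and tiragolumab. In T2215 the lowest of the first pair was 8.49 FPKM and the highest of the second 7.73 FPKM. There the Trbv sums were apart (6.14 against 4.81 FPKM), while the Trav sums overlapped (2.35 against 2.92 FPKM). The vehicle tumours of the experiments averaged 13.8 ± 4.0 and 18.7 ± 10.2 FPKM (SD, n = 3 each), and the serplulimab and HLX53 tumours of T2215 overlapped their vehicle tumours.

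The number of segments at 0.5 FPKM or more was counted in each tumour. In T2106 it was 21, 14 and 18 with serplulimab and 10 mg/kg HLX53, 12, 25 and 0 at 5 mg/kg, 16, 6 and 7 with serplulimab, 9, 4 and 11 with HLX53, 3, 0 and 2 with pembrolizumab and tiragolumab, and 10, 8 and 10 with vehicle. The ranges of the 10 mg/kg pair and of pembrolizumab with tiragolumab again lay on either side of vehicle without overlap. In T2215 it was 15, 16 and 6 with serplulimab and HLX53, 5, 10 and 1 with serplulimab and tiragolumab, 0, 1 and 15 with serplulimab, 13, 4 and 5 with pembrolizumab and HLX53, and 0, 0 and 4 with pembrolizumab and tiragolumab. It was 1, 2 and 2 with pembrolizumab, 5, 10 and 4 with HLX53, 0, 6 and 0 with tiragolumab, and 14, 2 and 10 with vehicle. Every treated group of T2215 overlapped vehicle in this count.

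The count moved with the sum. The 13 tumours with a sum under 5 FPKM held 0 to 3 segments (median 0), the 19 with 5 to 20 FPKM held 2 to 10 (median 6), and the 13 with 20 FPKM or more held 9 to 25 (median 15). A fixed threshold of 0.5 FPKM admits fewer segments where all levels are low, so the count is not a measure of diversity that is free of the amount of T cell RNA.

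**Figure D3:**
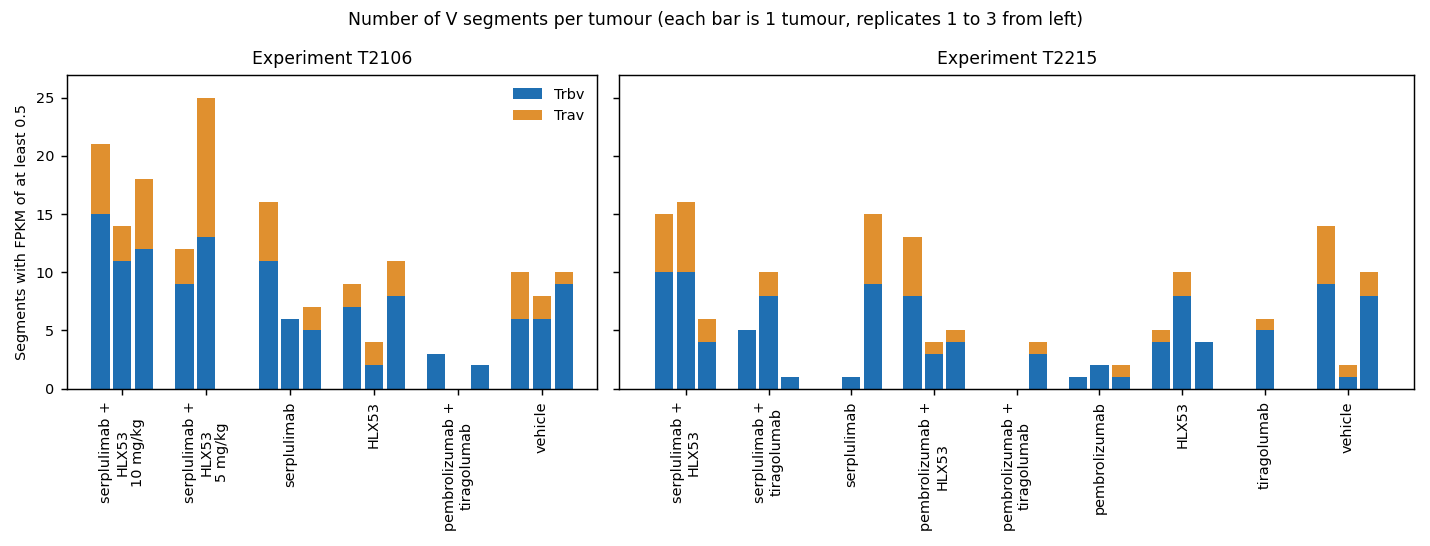
Number of Trbv (blue) and Trav (orange, stacked) segments with FPKM of at least 0.5 in each tumour, with 3 bars per group for replicates 1 to 3. The 10 mg/kg pair of T2106 holds 14 to 21 segments, vehicle 8 to 10, and pembrolizumab with tiragolumab 0 to 3.

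No segment ruled a group. The largest segment of each tumour was Trbv13-1 in 10 of 45 tumours, Trbv29 in 7, Trbv5 in 5, Trav3-3 and Trbv31 in 4 each, and Trbv13-2 in 3. Altogether 15 different segments took this place, 37 times a Trbv and 8 times a Trav. In 11 of 15 groups the 3 tumours had 3 different largest segments, in 4 groups a pair of tumours shared it, and in 0 groups did all 3. In 7 tumours the largest segment was itself below 0.5 FPKM.

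The largest segment took between 10.4% and 50.5% of the summed FPKM, with a median of 18.5%. At the top, Trbv14 with 2.17 FPKM held 50.5% in a T2215 tumour given pembrolizumab, Trbv13-1 with 3.74 FPKM held 45.5% in a T2215 vehicle tumour, and Trbv29 held 41.6% in replicate 2 of the T2106 group given serplulimab and 5 mg/kg HLX53. The first of these came with a sum of 4.30 FPKM and the last with 120.0 FPKM, in which Trbv1 was second at 11.6 FPKM. A high share thus stood both on little and on much V segment RNA. In T2106, HLX53 tumours had a largest share of 30.7%, 31.8% and 29.9% (Trbv13-1, Trbv4, Trbv13-1), against 15.7%, 16.3% and 21.4% in vehicle tumours (Trbv13-3, Trav6-5, Trbv1). These ranges did not overlap. Taken within its own chain, the share was 42.4%, 45.9% and 39.8% in HLX53 tumours, against 28.4%, 46.9% and 28.6% in vehicle tumours, and these ranges overlapped. In T2215, HLX53 tumours had 21.1%, 25.6% and 10.4%, against 18.5%, 45.5% and 15.7% in vehicle tumours, and the ranges overlapped.

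**Figure D4:**
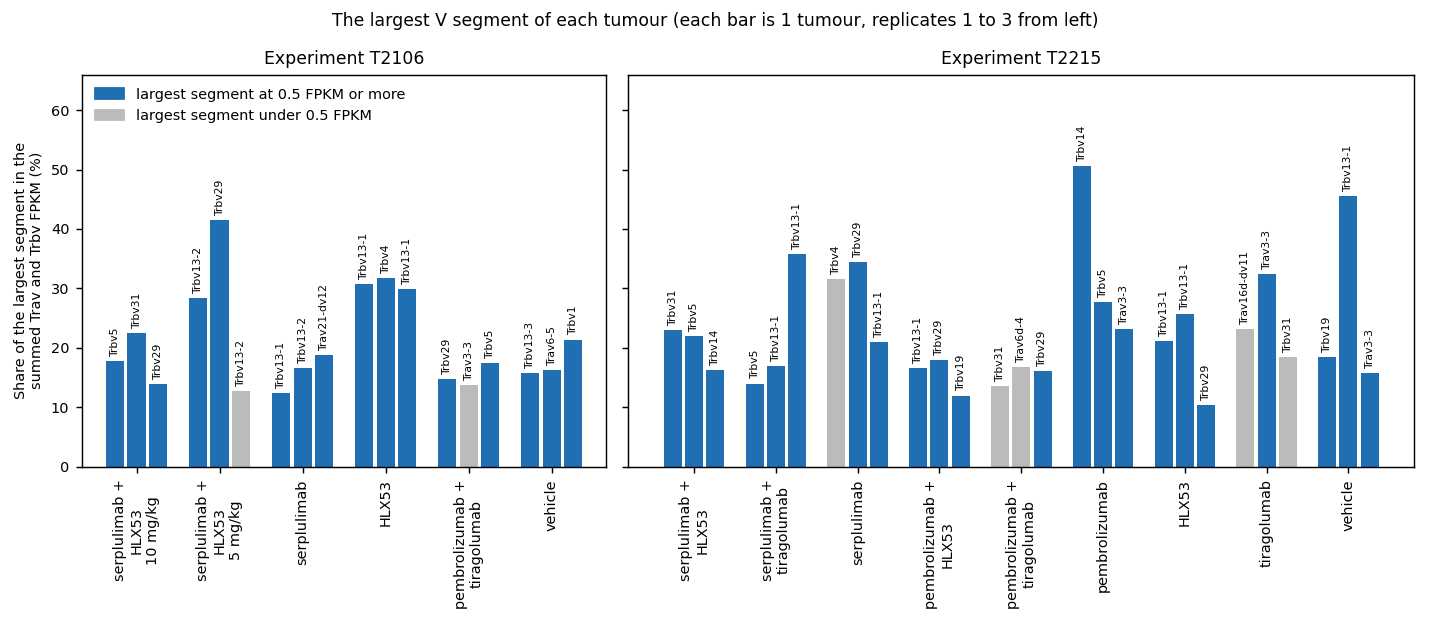
Share of the largest V segment in the summed Trav and Trbv FPKM of each tumour, in percent, with its name above the bar and grey bars where that segment was below 0.5 FPKM. The largest share spans 10.4% to 50.5%, names differ within most groups, and the T2106 HLX53 tumours sit at 29.9% to 31.8%.

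The beta segments carried more of the signal than the alpha segments, their sum being the larger in 44 of 45 tumours. Trav rows made up between 15.3% and 61.8% of the summed FPKM (median 30.7%). The constant regions Trac, of the alpha chain, and Trbc1 and Trbc2, of the beta chain, were read beside the V segments. Trbc1 and Trbc2 did not follow the Trbv sum in every tumour. In replicate 3 of the T2106 group given serplulimab and 5 mg/kg HLX53 they stood at 6.62 and 7.87 FPKM. The Trbv sum of that tumour was 1.14 FPKM. The summed Trav FPKM was 0.201 to 1.02 times the FPKM of Trac (median 0.626). Trbv over the sum of Trbc1 and Trbc2 ran from 0.0627 to 0.713 (median 0.332). With serplulimab and 10 mg/kg HLX53 in T2106 this beta ratio averaged 0.545 ± 0.020, with pembrolizumab and tiragolumab 0.166 ± 0.018, and with vehicle 0.371 ± 0.003 (SD, n = 3 each), and these 3 groups did not overlap. Trbc1 and Trac did not differ alike. In tumours given pembrolizumab and tiragolumab Trbc1 stood at 12.9, 8.21 and 10.4 FPKM, against 7.92, 7.16 and 17.3 FPKM in vehicle tumours, while Trac stood at 2.87, 1.13 and 1.16 FPKM, against 8.28, 8.47 and 7.57 FPKM in vehicle tumours.

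Tests were run on log2(FPKM + 0.5) with limma, over all genes with FPKM of at least 0.5 in at least 3 libraries of the experiment. This filter was passed by 19 V segments in T2106 (5 Trav, 14 Trbv) and by 14 in T2215 (3 Trav, 11 Trbv), and the other members were not tested. Changes are log2 differences with their SE, and a segment is called at a Benjamini-Hochberg adjusted p under 0.05 over all genes tested.

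With serplulimab and 10 mg/kg HLX53, set against vehicle in T2106, 3 of 19 V segments rose and 0 fell. Among all 15070 genes tested, 23.4% rose and 20.6% fell, so the share of V segments called was not above the background. Trbv31 had 2.93, 7.49 and 4.94 FPKM in treated tumours, against 0.651, 0.170 and 0.625 FPKM in vehicle tumours. Its log2 change was 2.48 ± 0.64 (adjusted p = 0.0134, limma). Trbv5 had 13.4, 2.45 and 5.00 FPKM in treated tumours, against 0.979, 1.21 and 0.565 FPKM in vehicle tumours (log2 change 2.13 ± 0.76, adjusted p = 0.0364, limma). Trav21-dv12 had 6.84, 1.14 and 1.80 FPKM in treated tumours, against 0.655, 0.149 and 0.153 FPKM in vehicle tumours (log2 change 1.94 ± 0.73, adjusted p = 0.0432, limma). In each of the 3, every treated tumour lay above every vehicle tumour. The 3 were picked because they were called, which makes ranges apart likely. The share of all genes with ranges apart is not given here.

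Other segments had changes of similar size and missed the threshold. Trbv29 had 3.81, 4.09 and 7.84 FPKM in treated tumours, against below 0.01, 0.141 and 1.59 FPKM in vehicle tumours (log2 change 2.65 ± 1.23, adjusted p = 0.0878, limma). Trbv13-1 had 3.28, 2.49 and 5.00 FPKM in treated tumours, against 0.141, 0.833 and 0.612 FPKM in vehicle tumours (log2 change 2.01 ± 1.01, adjusted p = 0.111, limma). Neither range overlapped that of vehicle, while the SE, which draws on the spread within all 6 groups, was wide. Here too the share of all genes with ranges apart is not given. Trbv20 pointed the other way, with below 0.01, below 0.01 and 0.141 FPKM in treated tumours, against 0.139, 0.935 and 1.58 FPKM in vehicle tumours (log2 change -1.19 ± 0.53, adjusted p = 0.0767, limma). The median log2 change was 1.15 over the 19 segments, of which 17 were positive, and -0.04 over all genes tested. The lower level of Trbv20 was not particular to this pair. Its log2 change over vehicle was -1.02 with HLX53, -0.89 with serplulimab and -1.31 with pembrolizumab and tiragolumab. It was -0.34 with serplulimab and 5 mg/kg HLX53, each with an SE of 0.53.

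The 3 calls changed when single tumours were left out, while the direction of the changes did not. With each of the 6 tumours left out in turn, the log2 change was 2.18 to 2.79 for Trbv31. It was 1.53 to 2.65 for Trbv5 and 1.30 to 2.38 for Trav21-dv12. Without replicate 1 or replicate 3 of the treated group 0 segments were called, and without replicate 2 the number was 5. Without vehicle replicate 2 or replicate 3 it was 1. With a pseudocount of 0.1 it was 1, with only the 2 compared groups in the fit it was 7, and without the 5 mg/kg tumour of highest V segment signal it was 6. The share of all genes called in each refit is not given here, so these counts are not set against a background.

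The same treated tumours set against pembrolizumab and tiragolumab gave 8 of 19 segments higher and 0 lower, where 25.8% of all genes tested were higher and 16.8% lower. This comparison and the last share the treated tumours. A segment could pass the filter through the group in which it was high, so the count of segments called is a description. Trbv5 had 13.4, 2.45 and 5.00 FPKM in serplulimab and HLX53 tumours, against below 0.01, 0.131 and 0.629 FPKM in pembrolizumab and tiragolumab tumours (log2 change 3.10 ± 0.76, adjusted p = 0.0101, limma). Trbv31 was at 0.304, 0.123 and 0.109 FPKM with pembrolizumab and tiragolumab, and its change was 2.98 ± 0.64 (adjusted p = 0.00748, limma). Trbv13-2 had 10.2, 0.923 and 6.39 FPKM in serplulimab and HLX53 tumours, against 0.18, 0.382 and 0.337 FPKM in pembrolizumab and tiragolumab tumours, a change of 2.57 ± 0.84 (adjusted p = 0.028, limma).

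Trav21-dv12 (2.48 ± 0.73), Trav3-3 (1.94 ± 0.68) and Trbv19 (1.67 ± 0.55) were also higher. For Trav3-3 the values were 3.63, 3.85 and 1.22 FPKM with serplulimab and HLX53, against 0.475, 0.423 and 0.104 FPKM with pembrolizumab and tiragolumab. Trbv14 and Trav7-4 were called as well, with changes of 1.64 ± 0.60 and 1.01 ± 0.30 that depend on the pseudocount, because both were listed below 0.01 FPKM in all 3 pembrolizumab and tiragolumab tumours. Trbv14 had 1.67, 0.271 and 1.75 FPKM and Trav7-4 had 0.458, 0.517 and 0.549 FPKM in serplulimab and HLX53 tumours. Trav7-4 has 1 difference from its closest copy, Trav7d-4, so its reads may be shared. The count was 5, 3 and 2 without replicates 1, 2 and 3 of pembrolizumab and tiragolumab, and 1 and 4 without replicates 1 and 3 of serplulimab and HLX53. Trbv31 passed in all 13 alternatives tried.

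**Figure D5:**
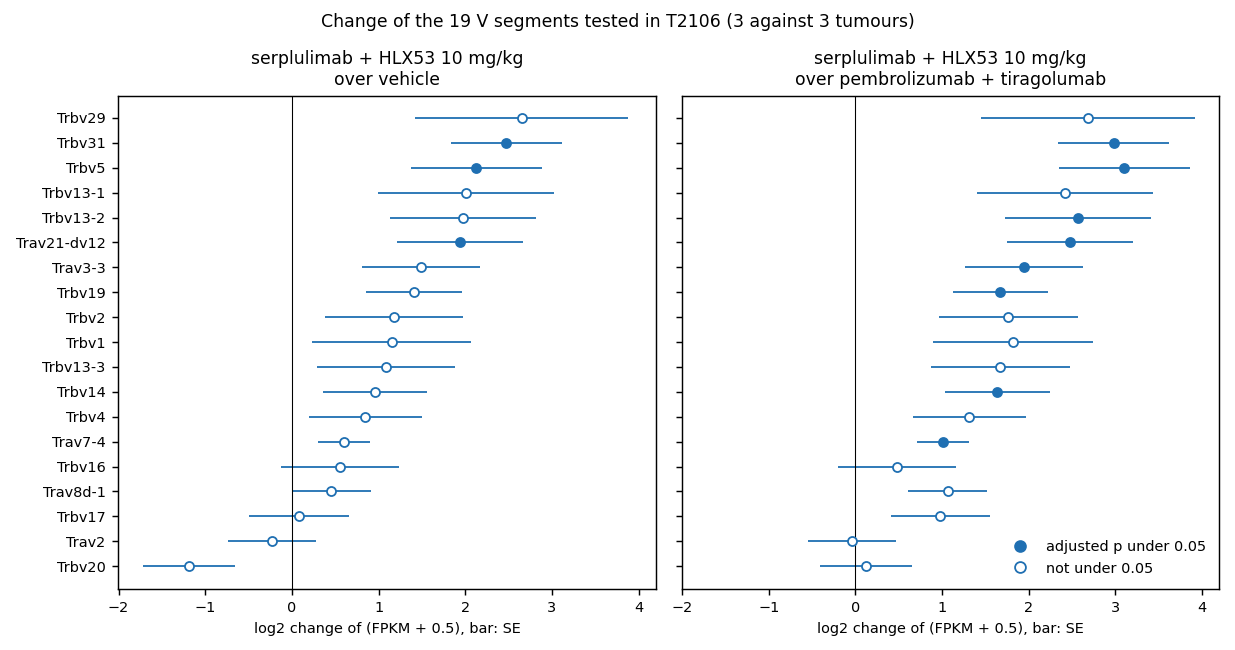
Change of log2(FPKM + 0.5) with its SE for the 19 V segments tested in T2106, for serplulimab with 10 mg/kg HLX53 over vehicle (left) and over pembrolizumab with tiragolumab (right), with filled points at an adjusted p under 0.05. Trbv31, Trbv5 and Trav21-dv12 are filled in both panels, and most other segments lie right of 0 with wide bars.

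The remaining comparisons of T2106 called 0 of 19 V segments with limma. The share of all genes called was 1.02% for serplulimab with 5 mg/kg HLX53 over vehicle (0.352% higher, 0.67% lower), 0.00664% for HLX53 over vehicle, 0% for serplulimab or for pembrolizumab with tiragolumab over vehicle, and 0.139% for the 10 mg/kg over the 5 mg/kg pair (0.133% higher, 0.00664% lower). At an unadjusted p under 0.05 limma gave 0 V segments with 5 mg/kg, HLX53 or serplulimab over vehicle, 1 with pembrolizumab and tiragolumab over vehicle, and 4 for 10 mg/kg over 5 mg/kg. The share of all genes under 0.05 was 28.7%, 3.86% and 8.49% with 5 mg/kg, HLX53 and serplulimab, 5.14% with pembrolizumab and tiragolumab, and 11% for 10 mg/kg over 5 mg/kg. With pembrolizumab and tiragolumab 18 of 19 segments had a negative change from vehicle, with a median of -0.53, and the segment under 0.05 was Trbv20. In the 5 mg/kg group the median change was 0.42. The group's sum and its calls changed when single tumours were left out. Without its replicate 3, which had a sum of 1.59 FPKM, 5 segments were called over vehicle. Without its replicate 2, which had 120.0 FPKM, 7 were called for 10 mg/kg over 5 mg/kg. The shares of all genes called in these refits are not given here.

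In T2215 limma called 0 of 14 V segments in every comparison. Few genes of any kind were called there: 2 of 14914 (0.0134%) for pembrolizumab with tiragolumab over vehicle, 1 (0.00671%) for pembrolizumab with HLX53 over vehicle, and 0% for the other 6 treatments over vehicle. With serplulimab and HLX53 over vehicle the median change was 0.25 with 11 of 14 positive, and 4 of 14 segments and 18.3% of all genes had an unadjusted p under 0.05. With pembrolizumab and tiragolumab over vehicle 0 of 14 were positive, the median was -0.86, and 2 of 14 segments and 4.39% of all genes had an unadjusted p under 0.05. The medians were -0.54 for serplulimab, -0.88 for pembrolizumab, -0.46 for HLX53, -0.83 for tiragolumab, -0.46 for serplulimab with tiragolumab and -0.24 for pembrolizumab with HLX53, with 0, 1, 0, 2, 1 and 0 segments at an unadjusted p under 0.05, where the shares of all genes were 12.4%, 1.01%, 1.35%, 0.939%, 1.01% and 6.43%.

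For serplulimab with HLX53 over pembrolizumab with tiragolumab in T2215, 0.0134% of all genes were called. The V segment with the smallest p was Trbv14, with 3.52, 1.15 and 1.38 FPKM in serplulimab and HLX53 tumours, against 0.0956, 0.118 and 0.274 FPKM in pembrolizumab and tiragolumab tumours (log2 change 1.82 ± 0.48, adjusted p = 0.222, limma). Trbv5 had 2.69, 8.43 and 0.997 FPKM in serplulimab and HLX53 tumours, against 0.0112, 0.021 and 0.45 FPKM in pembrolizumab and tiragolumab tumours (log2 change 2.47 ± 0.70, adjusted p = 0.222, limma). Both ranges were apart, and the share of all genes with ranges apart is not given here. Of the 14 changes 13 were positive, with a median of 0.96. In limma 5 of 14 segments and 21.3% of all genes had an unadjusted p under 0.05. Trbv31, called in T2106, had 7.01, 0.440 and 0.298 FPKM with serplulimab and HLX53, against 0.322, below 0.01 and 0.386 FPKM with pembrolizumab and tiragolumab. Its high value came from a single tumour.

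The factorial layout of T2215 allowed the antibodies to be compared within a class. The 9 tumours given HLX53, alone or paired, had a mean sum of 16.5 FPKM and the 9 given tiragolumab 6.08 FPKM, with overlapping ranges. All 14 changes were positive for HLX53 over tiragolumab (median 0.54), and 6 of 14 segments and 26.6% of all genes had an unadjusted p under 0.05. No segment was called (smallest adjusted p among the 14 = 0.154, limma), and 0% of all genes were (smallest adjusted p = 0.138, limma). Of the V segments Trbv14 had the smallest p, with a change of 0.95 ± 0.28. The serplulimab arms had a mean sum of 15.6 FPKM and the pembrolizumab arms 7.21 FPKM, with 13 of 14 changes positive, a median of 0.30, and 1 segment and 9.51% of all genes at an unadjusted p under 0.05. Again 0 of 14 segments and 0% of all genes were called. Any PD-1 antibody over none and any TIGIT antibody over none gave medians of -0.03 and -0.01, with 0 unadjusted p under 0.05 among V segments in either, against 7.28% and 6.62% of all genes, and 0% and 0.0134% of all genes called. The interaction of the antibody classes called 0 of 14 segments and 0% of all genes, with a median of 0.94, and 1 segment and 1.14% of all genes had an unadjusted p under 0.05.

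Sets of V segments with a known biology were read next. BALB/c mice carry endogenous retroviral superantigens that delete T cells using Trbv12-1, Trbv12-2, Trbv15, Trbv16 and Trbv26 in the thymus. Trbv26 lay below 0.01 FPKM in all 18 tumours of T2106 and reached 0.123 to 0.17 FPKM in 3 of 27 tumours of T2215. Trbv12-1 reached at most 0.135 FPKM. Trbv12-2 and Trbv15 reached 0.5 FPKM in 2 tumours each and Trbv16 in 4, with highest values of 2.36, 0.792 and 4.87 FPKM. The 5 together summed to 0.766 to 2.94 FPKM with serplulimab and 10 mg/kg HLX53, against 0.00131 to 0.45 FPKM with vehicle in T2106. Trbv16 was the only one tested, with a log2 change of 0.55 ± 0.68 (adjusted p = 0.502, limma).

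The alpha segments of invariant T cells were not detected at this depth. Trav11 and Trav11d, used by natural killer T cells, and Trav1, used by mucosal-associated invariant T cells, stayed below 0.01 FPKM in all 45 tumours. The beta segments that natural killer T cells favour (Trbv13-1, Trbv13-2, Trbv13-3, Trbv29 and Trbv1) are also common in other T cells. They summed to 9.54 to 24.5 FPKM with serplulimab and 10 mg/kg HLX53, against 1.65 to 7.41 FPKM with vehicle in T2106. In that comparison limma called 0 of the 5, where 23.4% of all genes rose and 20.6% fell. At an unadjusted p under 0.05 there were 2 of the 5 and 56% of all genes. Over pembrolizumab and tiragolumab 1 of the 5, Trbv13-2, was higher, as were 25.8% of all genes.

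The partner genes of the receptor were read as lists, beside the 23.4% of all genes that rose over vehicle and the 25.8% that were higher than with pembrolizumab and tiragolumab. For serplulimab with 10 mg/kg HLX53 over vehicle, 1 of 4 tested constant regions rose, a share near that of all genes: Trbc1 (log2 change 1.45 ± 0.44, adjusted p = 0.0205, limma), while Trac stood at 28.3, 10.6 and 21.8 FPKM, against 8.28, 8.47 and 7.57 FPKM with vehicle (1.16 ± 0.90, adjusted p = 0.286, limma). Trbc2 had a change of 1.62 ± 0.77 (adjusted p = 0.0952, limma). Of the CD3 complex, which carries the signal of the receptor, 0 of 4 passed in limma, with 4 of 4 changes positive and 2 at an unadjusted p under 0.05 (56% of all genes), and Cd3e had 0.96 ± 0.71. Of the coreceptors 1 of 3 rose: Cd4 had 12.3, 4.96 and 6.83 FPKM in treated tumours, against 0.692, 1.22 and 0.907 FPKM in vehicle tumours (2.49 ± 0.72, adjusted p = 0.0188, limma). Cd8a had 1.15 ± 0.77 (adjusted p = 0.218, limma). Of the proximal signalling genes 11 of 19 rose, among them the adaptor Lcp2 (1.68 ± 0.47) and the kinase Fyn (1.2 ± 0.36). Over pembrolizumab and tiragolumab, 3 of 4 constant regions, 4 of 4 CD3 genes, 3 of 3 coreceptors and 16 of 19 signalling genes were higher, with Trac at 3.20 ± 0.90 and Cd3e at 2.77 ± 0.71. Dntt, the enzyme that adds bases at V segment junctions during T cell development, was the only recombination gene tested and was called in both comparisons (0.71 ± 0.27 over vehicle, 0.92 ± 0.27 over pembrolizumab and tiragolumab). In T2215 no gene of these lists was called in a comparison.

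Genes of T cell subsets and other lymphocytes also differed in the same tumours. Over vehicle, where 23.4% of all genes rose, 6 of 11 genes of CD8 and cytotoxic T cells rose, 4 of 6 of regulatory T cells and 4 of 7 of naive and memory T cells, with the cytokine Ifng at 1.66 ± 0.36, the protease Gzmb at 1.27 ± 0.38, the interleukin receptor chain Il2ra at 1.6 ± 0.45, the checkpoint receptor Ctla4 at 1.51 ± 0.51, and the migration receptors Ccr7 and S1pr1 at 2.27 ± 0.68 and 1.69 ± 0.48. Of natural killer cell genes 2 of 4 rose, among them Klra3 (0.74 ± 0.26). Of 2 gamma delta V segments tested limma called 0, with 0 at an unadjusted p under 0.05, against 32 of 51 immunoglobulin V segments, whose median change was 2.02. Over pembrolizumab and tiragolumab the counts were 1 of 2 and 32 of 51. The B cell list had 5 of 5 genes higher than vehicle, among them Cd79a (2.17 ± 0.60) of the B cell receptor complex. The list's 8 members summed to 3.65 to 37.3 FPKM in treated tumours, against 1.27 to 3.0 FPKM in vehicle tumours. Of plasma cell genes 6 of 8 rose, led by the immunoglobulin constant genes Igkc (6.74 ± 1.45) and Iglc2 (3.05 ± 0.66), and of macrophage genes 6 of 7, among them Cd14 (1.0 ± 0.22) and Cd68 (1.75 ± 0.41).

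Markers of surrounding tissue also differed in these tumours, in a comparison in which 23.4% of all genes rose and 20.6% fell. All 10 adipocyte genes rose over vehicle, with the lipid droplet proteins Plin4 and Plin1 at 3.09 ± 0.61 and 4.28 ± 0.97, and their sum was 1681 to 1912 FPKM with serplulimab and 10 mg/kg HLX53, against 49.6 to 62.6 FPKM with pembrolizumab and tiragolumab and 51.6 to 362 FPKM with vehicle. Of 5 tested skin keratinocyte genes 4 rose, with Krt14 at 2.56 ± 0.33 (sum of the list 10.1 to 11.1 FPKM in treated tumours, against 1.29 to 1.83 FPKM in vehicle tumours), and Krt1, a marker of differentiated skin, stayed below 0.01 FPKM in both groups. All 3 tested genes of lymphoid stroma and high endothelium rose (8.61 to 149 FPKM over its 8 members, against 0.31 to 5.11 FPKM with vehicle), with the chemokine Cxcl13 at 5.15 ± 1.39. Of skeletal muscle genes limma called 0 of 2, with 0 at an unadjusted p under 0.05, and 8 of 8 cell cycle genes fell, among them Bub1b (-1.05 ± 0.25). In the 5 mg/kg group the adipocyte sum ran from 46.0 to 1883 FPKM. The part of these cell types in the V segment signal of these groups was not tested.

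The pair of serplulimab and HLX53 can be read segment by segment in both experiments. With serplulimab and 10 mg/kg HLX53 the largest segments were Trbv5, Trbv31 and Trbv29 in T2106 and Trbv31, Trbv5 and Trbv14 in T2215. Trbv5 and Trbv31 thus each led a tumour in both, which was not particular to this pair. With pembrolizumab and tiragolumab, Trbv5 led a T2106 tumour and Trbv31 a T2215 tumour. Both segments also led tumours of other T2215 groups. Trav21-dv12, which rose over vehicle in T2106, was below 0.01 FPKM in all 3 serplulimab and HLX53 tumours of T2215. It stood at 1.05, 1.13 and 0.130 FPKM in T2215 vehicle tumours. The V segment sum went with the level of T cell RNA. The 13 tumours with a sum under 5 FPKM had 0.784 to 2.87 FPKM of Trac, and the 13 tumours with 20 FPKM or more had 6.90 to 55.3 FPKM. Trac is the constant region of the chain that holds the Trav segments, so it is not a separate reading. Cd3e, a separate gene, stood at 0.212 to 1.07 FPKM in the first 13 tumours and at 4.50 to 21.3 FPKM in the other 13.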

How the data were processed

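The deposited tables hold log2 FPKM values made by the authors, with 1 column per tumour and 1 table per experiment. Per the submitters' processing notes, Trimmomatic, FastQC, Bowtie and STAR were used with mm10, hg19 and GRCh37. No source used here gives the program that computed FPKM. Values were taken off the log2 scale and tested as log2(FPKM + 0.5) in limma 3.58.1 (R 4.3.3), with all groups of an experiment in 1 fit and a trended prior, after a filter of 0.5 FPKM in at least 3 libraries. This scale understates the change of low segments. P-values weigh the difference between groups against the spread between tumours within groups, taken over all groups of the experiment. Reads that cross a V segment junction may align poorly to germline segments, which would lower their FPKM. Sums, numbers and shares of segments were computed in Python 3.11.15 with pandas 2.3.3, and carry no test.

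Members and lists were chosen with earlier results of these data known. The genes named were the 6 Trav and 6 Trbv segments of highest mean, called segments (up to 6 per direction), the largest segment of each tumour, the segments of the superantigen and invariant T cell lists, 6 T cell genes, and up to 2 members of smallest p from each list with a called gene. Trbv20, Trbv21, Trbv23, Trav20 and Krt1 were added once their values were known. Some genes that this rule names are not reported here. Coordinates and sequences are from GENCODE M21 on GRCm38, which held all 163 rows. The alternatives tried were other pseudocounts, no filter, median centring, only the compared groups, the replicate number as a block, other thresholds and denominators, and each tumour left out in turn.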

Additional observations from a re-analysis of the deposited data

Results flagged for a closer look

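For the 4 treatments given in both experiments, 13 quantities were compared, giving 52 pairs of effects. In 5 of them every treated tumour lay on one side of the vehicle mean in T2106 and on the opposite side in T2215. The difference between the experiments was not tested in any of them, and the tables were normalised separately. The rate of such flags over all genes, or by chance, is not given here. The number of flags is thus not set against a background.

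With serplulimab and HLX53 at 10 mg/kg, 3 segments were flagged in this way. Among them, Trav21-dv12 and Trbv19 had been called higher with this pair than with pembrolizumab and tiragolumab in T2106. For segments picked because they were high there, a positive T2106 difference was likely from the start. A flag on them cannot show that the experiments differ. Trav21-dv12 was 2.944 FPKM above the vehicle mean in T2106 and differed from it by -0.7677 FPKM in T2215, where it was below 0.01 FPKM in all 3 treated tumours. Trbv13-1 differed by 3.064 FPKM in T2106 and by -0.9827 FPKM in T2215. Trbv19 differed by 1.619 FPKM in T2106 and by -1.661 FPKM in T2215. With serplulimab alone, Trbv19 differed by 0.8096 FPKM in T2106 and by -2.1 FPKM in T2215. With HLX53 alone, the share of the largest segment differed by 13 percentage points in T2106 and by -7.537 percentage points in T2215, where a single vehicle tumour stood at 45.5%.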

How the results depend on the processing

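The 3 segments called for serplulimab with 10 mg/kg HLX53 over vehicle became 1 with a pseudocount of 0.1, 7 with only the compared groups in the fit, and 6 without the tumour of highest V segment signal, an alternative chosen after seeing the data. The cause was not tested. Leaving out each tumour in turn gave 0 to 5 there, 1 to 9 over pembrolizumab and tiragolumab, 0 to 7 over the 5 mg/kg pair, 0 to 5 for the 5 mg/kg pair over vehicle, and in T2215 0 to 1 for serplulimab with HLX53 over vehicle and 0 to 1 over pembrolizumab and tiragolumab. Apart from the refits with each tumour left out in turn, the other 127 counts of called segments equalled the main count or stayed within 1.5 times of it. They include refits without the tumour of highest V segment signal, and comparisons in which both fits called 0. No named segment reversed, and Trbv31 kept its call over vehicle in 11 of 13 alternatives, against 6 of 13 for Trbv5 and Trav21-dv12. Correlations of levels between replicates ran from 0.829 to 0.992 in T2106 and from 0.893 to 0.991 in T2215. The replicate numbers were checked on another scale, centred near 0, between tumours of different groups. On it, same-numbered tumours correlated between -0.683 and 0.624 in T2106 (median -0.0259) and between -0.739 and 0.723 in T2215 (median -0.0385). In this check 5 of 18 and 4 of 27 tumours correlated best with their own number. No label says what the numbers mean, and these correlations do not settle whether they pair the tumours. The numbers were treated as names only in the main fit. With a replicate block 4 segments were called over vehicle, 7 over pembrolizumab and tiragolumab, and 0 in all other comparisons. The shares of all genes called in these alternatives are not given here.

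With FPKM rescaled to a fixed library sum, the mean difference in summed V segment FPKM in T2106 changed from 41.17 to 60.05 for the 10 mg/kg pair over vehicle. It changed from 51.18 to 72.96 for that pair over pembrolizumab and tiragolumab, and from -10.02 to -12.91 for pembrolizumab and tiragolumab over vehicle. The fixed sum was above that of every T2106 library, which ran from 6.834e+05 to 8.575e+05 FPKM. Every value therefore grew with the change of unit, so these larger differences cannot be read as stronger relative changes between groups. Counting segments at 0.1 FPKM changed the mean difference in their number to 14 for the 10 mg/kg pair over vehicle, 26.33 for it over pembrolizumab and tiragolumab, -6 for HLX53 and -12.33 for pembrolizumab and tiragolumab over vehicle in T2106. In T2215 it became -12.67 for serplulimab, -12 for pembrolizumab, -15.33 for tiragolumab and -15 for pembrolizumab and tiragolumab over vehicle, 16.67 for serplulimab with HLX53 over pembrolizumab with tiragolumab, and 10.89 for HLX53 over tiragolumab arms. At 1 FPKM it was 3 for HLX53 over vehicle, which turned its direction, -3.333 for pembrolizumab and tiragolumab over vehicle in T2106, and 6.333 for serplulimab with HLX53 over pembrolizumab with tiragolumab in T2215. The largest share taken within its own chain differed by 8.03 percentage points for HLX53, -6.223 for pembrolizumab and tiragolumab and -10.11 for the 10 mg/kg pair over vehicle, and -3.883 for that pair over pembrolizumab and tiragolumab. In T2215 it differed by 12.81 for tiragolumab over vehicle and -11.95 for HLX53 over tiragolumab arms. The share of the 3 largest segments differed by 17.99 for HLX53 and 2.627 for pembrolizumab and tiragolumab over vehicle in T2106. The number and share of segments thus depend on the threshold and the denominator. Read depth is unknown.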
